A study of Homo sapiens with 12 samples.

Results

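SMARCB1 encodes a core subunit of the canonical BAF and PBAF forms of SWI/SNF, complexes that move nucleosomes and open chromatin at promoters and enhancers. Its loss on both alleles is the defining lesion of rhabdoid tumours. BRD9 belongs to a further form of SWI/SNF that assembles without SMARCB1. The SMARCB1 locus was described here through all ATAC-seq peaks that overlapped the window chr22:24079000-24227000 in GRCh37. Peaks were taken by position, and the locus itself was picked with earlier results of these data known. Within this window of 148 kb the gene body takes up 24129150 to 24176705, which is 47.6 kb, and the flanks make up the other 100 kb. The 12 deposited lists held 742200 peaks in all, of which 30 lay in the window. After merging of peaks that overlapped by at least 1 bp they formed 7 of the 187088 regions of the series.

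ATAC-seq marks accessible DNA by transposase insertion. The cells were G401, an established rhabdoid tumour line whose genotype the labels give as SMARCB1(-/-), a loss shared by every group. Each culture received doxycycline for 24 h, which induced GFP in the control groups and SMARCB1 in the others. Over the same time they were given DMSO, as vehicle, or the BRD9 degrader dBRD9-A, so that 4 groups of 3 libraries resulted (GFP DMSO, GFP dBRD9-A, SMARCB1 DMSO and SMARCB1 dBRD9-A). How the induced gene is carried, its promoter and whether the lines are single clones are not given in the sources used here. The labels do not say whether the replicates were separate cultures, so the p-values measure only the spread between these libraries, which may be technical. Peak lists carry no annotation of GRCh37, so the identity of the cells was not checked against marker genes.

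The lists were of unequal length and depth. They held 33428 to 50089 peaks in GFP libraries and 71169 to 96572 in SMARCB1 libraries. Depth was read from the lowest background pileup in a list, which is the chance level of fragments per position and grows with sequencing. It ranged from 0.0383 to 0.0784 in GFP and from 0.0501 to 0.111 in SMARCB1 libraries. A weak peak is more easily missed in a shallow library, and a list without a peak does not show that chromatin was closed.

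The SMARCB1 locus separated the 2 inductions completely. None of the 6 GFP libraries had a peak anywhere in the window. In SMARCB1 DMSO libraries the gene body held 6, 4 and 6 peaks in replicates 1, 2 and 3, and in SMARCB1 dBRD9-A libraries it held 6, 3 and 5. The groups did not overlap, and every library carrying the induction label SMARCB1 had at least 3 peaks in the gene. Genome-wide, 4.6% of windows of the same length had no GFP peak and a peak in each SMARCB1 list. That is a looser condition than 3 peaks per list. The mean was 5.33 ± 1.15 peaks in SMARCB1 DMSO and 4.67 ± 1.53 in SMARCB1 dBRD9-A (SD, n = 3 each). With both treatments averaged, the gene body held 5 more peaks in SMARCB1 than in GFP libraries (two-sided exact permutation within treatments, p = 0.005, the smallest that test allows; Benjamini-Hochberg adjusted p = 0.0375 over 15 planned tests). With a block by replicate number the adjusted p was 0.234, above the threshold of 0.05 (exact sign flips of 6 paired differences). The unadjusted p of 0.0312 was the smallest those sign flips allow, so this setting could not reach the threshold over 15 planned tests. Identifiers in the titles are consecutive among libraries of one replicate number, but no label names that number as a batch. Since the GFP libraries were at 0, the differences within a replicate number equal the SMARCB1 counts above and were positive in all 6 pairs. With every list shortened to the 33428 peaks of the shortest, the difference was 3.17 peaks, with the same adjusted p of 0.0375. The presence of a peak in the 6 SMARCB1 libraries at 1 of these regions was already known when the locus was chosen, so this test is no independent evidence.

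All 30 peaks lay inside the gene body. The flanks held 0 peaks in each of the 12 libraries, in GFP and SMARCB1 cells alike, so that no test of the flanks had a value and 100% of the peak bases of each SMARCB1 library fell within the gene. The bases covered inside were 675, 426 and 735 bp in the SMARCB1 DMSO replicates 1, 2 and 3 and 678, 290 and 653 bp in the dBRD9-A ones. They exceeded the GFP libraries, all at 0, by 576 bp on average (exact permutation p = 0.005, adjusted p = 0.0375, or 0.234 with the replicate block). With lists of equal length the difference was 367 bp. Without any single GFP dBRD9-A library (replicate 1, 2 or 3) the adjusted p of both differences was 0.075 by the exact permutation test, although no value of the other libraries changed. Without any single GFP DMSO library, likewise at 0, it stayed at 0.0375. Both differences themselves were unchanged by leaving out a GFP library. The shift to 0.075 came from the set of label arrangements, whose groups become unequal in size, and not from the values of those libraries. Replicate 2 had the fewest peaks and bases in both treatments. Its dBRD9-A library also had the shortest list of the 6 and the lowest background pileup, 0.0501, whereas its DMSO library had the second-longest list, with 90143 peaks.

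**Figure D1:**
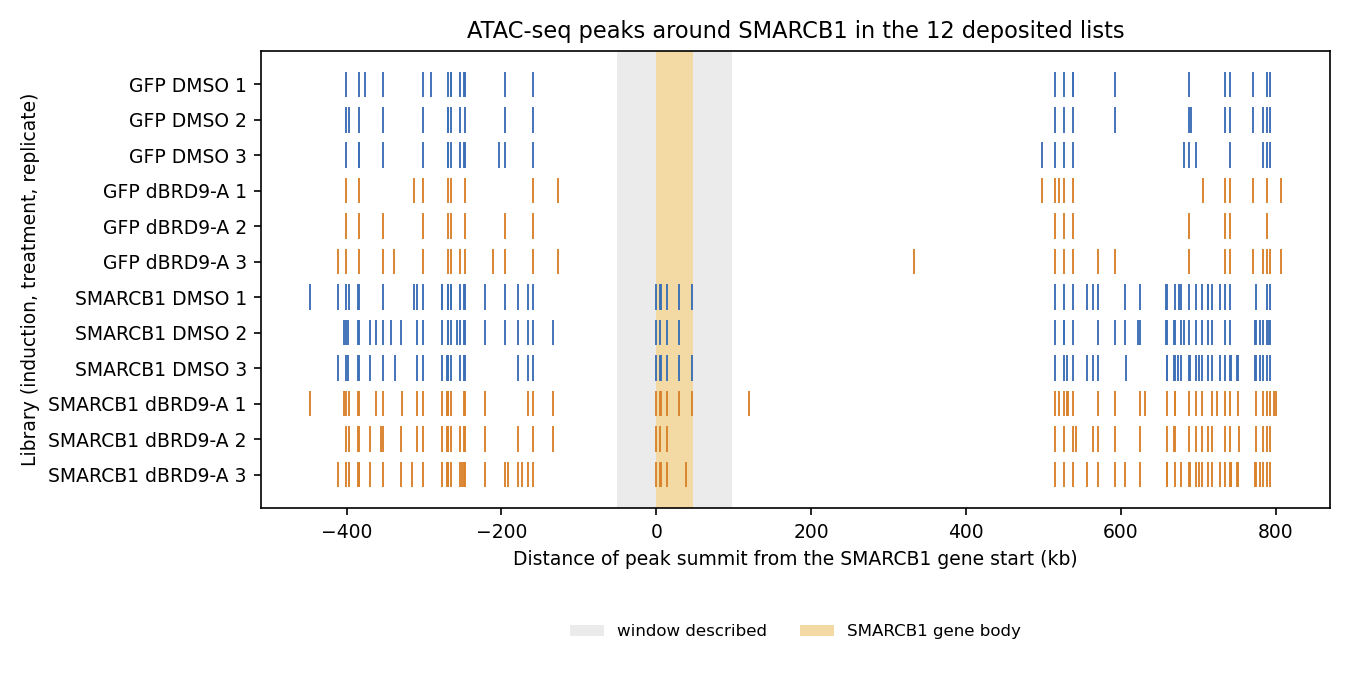
Peak summits of the 12 lists (vertical ticks, 1 row per library, blue for DMSO and orange for dBRD9-A) against their distance in kb from the SMARCB1 gene start, with the described window in grey and the gene body in yellow. Within the window the 6 GFP rows are empty and the 6 SMARCB1 rows have ticks only inside the gene body. Outside the gene body all 12 rows are nearly empty from 159 kb before the gene to 467 kb after it.

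Windows of the same length without a GFP peak were common in the genome, since the lists are sparse. Tiling the chromosomes gave 20261 windows, of which 6190, or 30.6%, had no peak in any GFP list. On chromosome 22 the share was lower, with 24 of 236 windows. Windows that lacked GFP peaks and had a peak in each of the 6 SMARCB1 lists made up 4.6% of the 20261.

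The near absence of peaks reached far beyond the flanks. The last region found in all 12 lists before the gene ended at 23969904, and the next one after it started at 24643534, a distance of 674 kb. Apart from the 7 regions of the gene body, this stretch held 5 regions, and 0 of them were found in 6 libraries or more. The adjoining stretch of the same length before it held 90 regions, of which 31 were found in at least 6 libraries and 14 in all 12. The stretch after it held 105, with 33 in at least 6 libraries and 11 in all 12. The SMARCB1 gene therefore lay in a stretch nearly free of peaks in both inductions, between stretches that were well populated.

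The 5 regions in this stretch were weak. A region at 23995262 to 23995422 was found in 3 SMARCB1 libraries and had a fold enrichment of at most 6.53, and one at 24001708 to 24001798 was found in 2 GFP libraries. After the gene, single libraries had a peak at 24249432 to 24249517 and at 24461523 to 24461605, and 2 GFP libraries had one at 24627339 to 24627424. The folds of these other 4 regions were at most 3.81. Over all lists, the longest stretch around the gene without any other peak ran from 24001798 to 24249432, or 248 kb. Of the 3859 gaps between neighbouring regions of chromosome 22, 8 were at least as long, and the median gap was 5.13 kb. Genome-wide 893 of 187057 gaps (0.477%) were at least as long. The 248 kb was measured with the regions of the gene body left out, while no region was left out within the other gaps. These ranks are therefore not like for like and make the stretch look rarer than a gap measured as the others were. For the distance between regions found in all 12 lists, 6 of 480 such gaps on chromosome 22 were at least as long as 674 kb.

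In the RefSeq gene table of GRCh38.p14 the nearest protein-coding genes before SMARCB1 are MMP11, which encodes a matrix metalloproteinase, then CHCHD10, which encodes a mitochondrial protein, C22orf15, VPREB3 and ZNF70. After it come DERL3, which acts in degradation of proteins from the endoplasmic reticulum, SLC2A11, of the sugar transporter family, the cytokine gene MIF, GSTT2B and DDTL. That table is of another build, so the empty stretch was not assigned to these genes by position. The labels' genotype of homozygous SMARCB1 loss applies to all 12 libraries; whether the empty stretch is the DNA lost in these cells was not tested.

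The promoter side of the gene gave no peak in either induction. In the 250 bases before the gene start, 0 peaks were found in the 12 lists, and the first region began 207 bp after the gene start. The RefSeq sequence of the 250 bases before the SMARCB1 transcript start, on the plus strand at chr22:23786716-23786965 of GRCh38.p14 (not comparable with the GRCh37 positions elsewhere), is shown because it is where a gene's own promoter would lie. Capitals mark the CG dinucleotides.
SMARCB1 promoter: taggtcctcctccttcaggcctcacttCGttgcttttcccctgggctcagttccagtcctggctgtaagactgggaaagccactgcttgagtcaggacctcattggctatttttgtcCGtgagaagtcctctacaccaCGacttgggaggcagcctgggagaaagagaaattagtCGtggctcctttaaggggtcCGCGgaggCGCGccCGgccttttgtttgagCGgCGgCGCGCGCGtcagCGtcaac
This stretch holds 16 CG dinucleotides, against a median of 11 over the 35116 promoters of the table. At least as many were found in 41% of those promoters, and 93.9% held at least 1.

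The 7 regions of the gene body were short and far apart. In genomic order they lay at 24129357 to 24129451 (region 1), 24133941 to 24134081 (region 2), 24135745 to 24135875 (region 3), 24143125 to 24143262 (region 4), 24158955 to 24159116 (region 5), 24167432 to 24167602 (region 6) and 24175757 to 24175876 (region 7). Their widths were 95, 141, 131, 138, 162, 171 and 120 bp, together 958 bp or 2.01% of the gene body. Between them lay 1663 to 15692 bp without a peak. The coding sequence of SMARCB1 is divided among several exons separated by longer introns. No exon annotation of GRCh37 was used here, so the regions were not assigned to exons or introns. Peak lists give positions on the reference only, so fragments from an induced copy of the gene and from the chromosome itself cannot be told apart.

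Regions 1, 2 and 4 were found in all 6 SMARCB1 libraries. Region 3 was found in 2 libraries of each treatment, missing in both replicates numbered 2. Region 5 was found in 3 DMSO libraries and 1 dBRD9-A library, region 6 in 1 dBRD9-A library, and region 7 in 2 DMSO libraries and 1 dBRD9-A library. Called gained when present in 3 of 3 SMARCB1 and 0 of 3 GFP libraries, 4 of 7 regions were gained in DMSO, against 11.3% of all 187088 regions. In dBRD9-A 3 of 7 were gained, against 10.6% of all regions. The 3 regions present in 6 of 6 against 0 of 6 compare with 7.29% over all regions. With lists of equal length 2 of 7 were gained in DMSO against 2.99% of all regions, 1 of 7 in dBRD9-A against 2.97%, and 1 of 7 in both against 1.95%. Each member lacked a peak in every GFP list, so the GFP condition of these calls was met by all 7. The shares over all regions include regions with GFP peaks, so they are not a like comparator. A share over regions without a GFP peak was not computed. No member was present in 3 of 3 libraries of one treatment and 0 of 3 of the other within SMARCB1 cells, a pattern shown by 0.505% of all regions.

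Region 1 was the strongest. Its fold enrichment, the authors' value for the summit pileup over the background, was 37.4, 31.1 and 40.3 in SMARCB1 DMSO replicates 1, 2 and 3, and 31.8, 17.4 and 38.0 in the dBRD9-A ones. Within each list it ranked between the 97.18th and 99.99th percentile of all peaks, and it had the highest fold of the members in 6 of 6 lists, 2.48 to 4.28 times that of the next. The fragments at its summit numbered 59, 45 and 75 in DMSO and 50, 21 and 68 in dBRD9-A, with the lowest value in the library of lowest background pileup.

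Its edges did not vary between libraries. The peak began at 24129357 and ended at 24129451 in each of the 6 lists, and its summits fell within 2 bp of each other, at 24129389 to 24129391. Such agreement was rare. Over the 36742 regions with exactly 1 peak in each of the 6 SMARCB1 lists, the starts spread over a median of 53 bp and so did the ends. Only 5 of them (0.0136%) had the same start and the same end in all 6 lists, region 1 among them. All 5 were narrow, at 86 to 96 bp, against median peak widths of 120 to 128 bp in the SMARCB1 lists. The comparison was not matched for width or fold. Of the 12776 that also had no peak in any GFP list, the larger of both ranges had a median of 103 bp, and region 1 was the 1 region with identical edges.

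**Figure D2:**
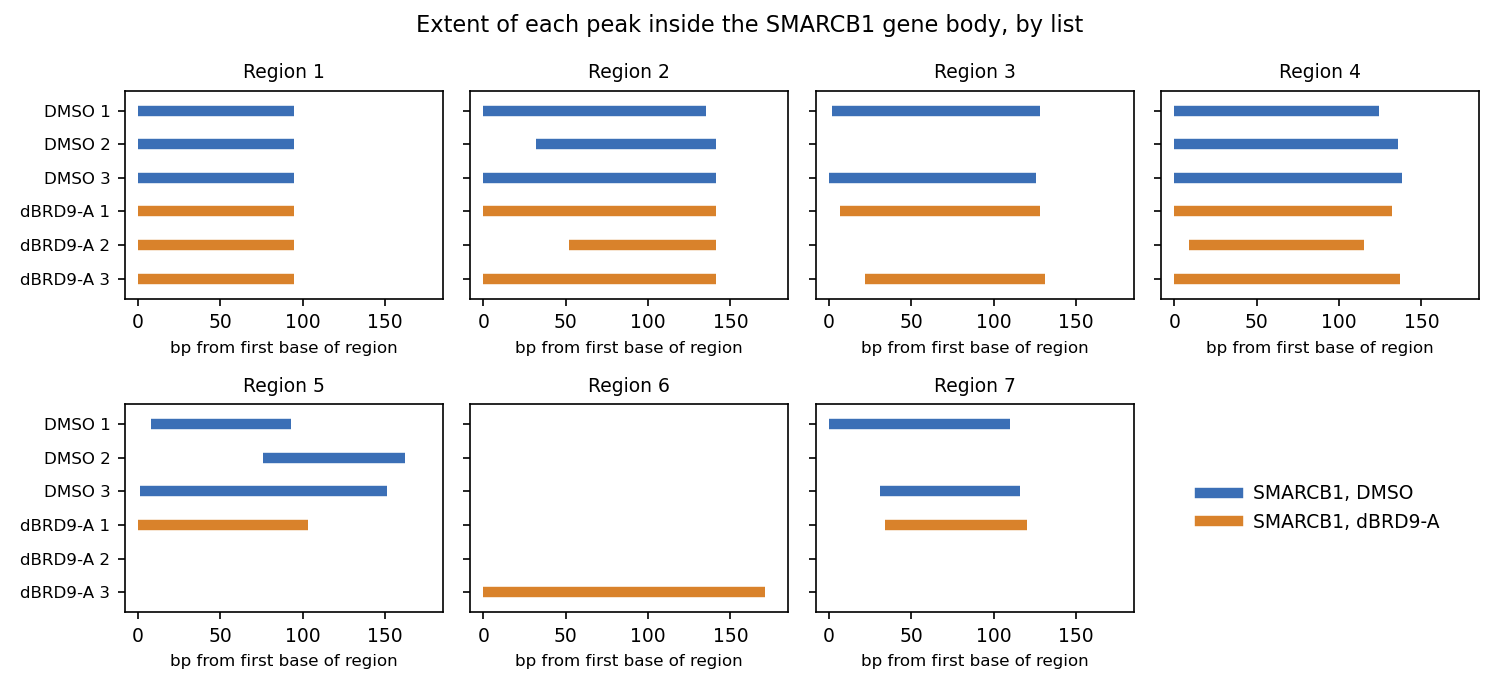
Extent of each peak (horizontal bars, blue for DMSO and orange for dBRD9-A) in bp from the first base of its region, with 1 panel per region and 1 row per SMARCB1 library. Region 1 spans the same 95 bp in 6 lists, region 2 shares its right edge in 5 and region 4 its left edge in 5, whereas region 5 has no edge in common.

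Other members shared one edge. Region 2 ended at 24134081 in 5 of 6 lists and at 24134075 in the other, and it began at 24133941 in 4. Both lists with a later start, 24133973 and 24133993, were those of replicate 2. Region 4 began at 24143125 in 5 of 6 lists and at 24143134 in dBRD9-A replicate 2, while its ends ran from 24143239 to 24143262. The ends of region 3 lay within 5 bp of each other in its 4 lists, and its starts within 22 bp. Region 5 was the loosest, with starts over 76 bp and ends over 69 bp, and its summits held 3 to 7 fragments.

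Set against the 12776 regions with exactly 1 peak in each of the 6 SMARCB1 lists and none in the GFP lists, the larger edge range of region 4 was 23 bp, and 1.71% of those regions had one as small or smaller. For region 2 it was 52 bp, with 13.2% as small or smaller. Both values are descriptions, as these regions were picked for their place in the gene with earlier results known.

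**Figure D3:**
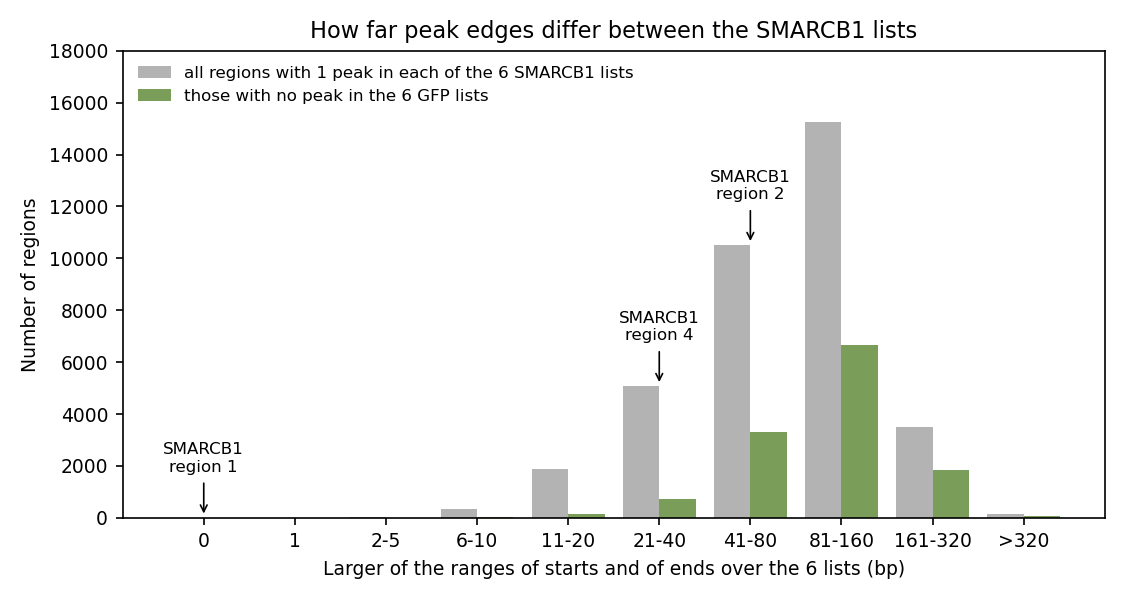
Number of regions (bars) by the larger of the ranges of starts and of ends over the 6 SMARCB1 lists, in bp, for all 36742 regions with 1 peak in each list (grey) and for the 12776 of them without a GFP peak (green). Arrows mark the classes of SMARCB1 regions 1, 2 and 4, with ranges of 0, 52 and 23 bp.

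Beyond region 1 the folds were moderate. Region 2 had folds of 5.86, 6.65 and 9.30 in DMSO replicates 1, 2 and 3 and 9.92, 7.01 and 7.59 in dBRD9-A. Region 4 had 9.78, 7.27 and 13.3 in DMSO and 8.89, 4.76 and 11.4 in dBRD9-A. The values of both treatments overlapped at each of these regions. Region 3 had 9.87 and 14.6 in DMSO replicates 1 and 3 and 9.48 and 13.2 in dBRD9-A replicates 1 and 3. In 3 of the 4 lists that held region 3 it was second to region 1.

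The regions farther into the gene were found in fewer libraries. Region 5 had folds of 3.71, 3.73 and 4.58 in DMSO replicates 1, 2 and 3 and of 7.31 in dBRD9-A replicate 1, where its −log10 q was 9.87. Region 7 had folds of 6.50 and 3.66 in DMSO replicates 1 and 3 and of 3.65 in dBRD9-A replicate 1. In DMSO replicate 1 its −log10 q was 8.54, and its fold was above the 5.86 of region 2 in that list. Region 6 was found in SMARCB1 dBRD9-A replicate 3 alone, the library of highest background pileup, with a fold of 2.70, 2 fragments at its summit and a −log10 q of 1.34, just above the lowest of any list, 1.30. At this depth a list without regions 5 to 7 cannot be told from one whose fragments there stayed below the threshold.

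**Figure D4:**
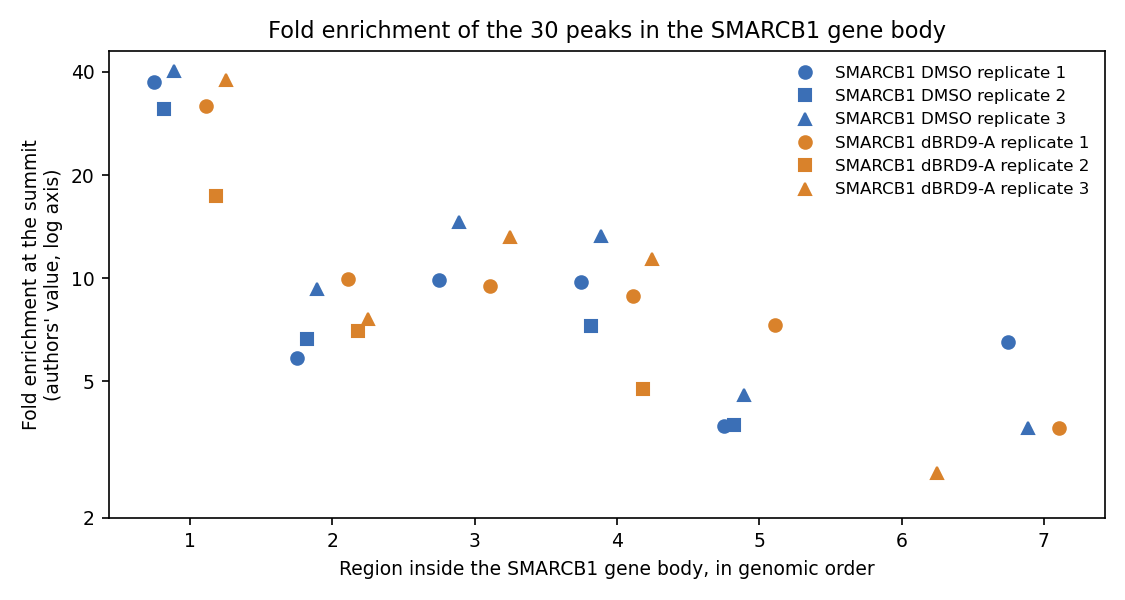
Fold enrichment at the summit (authors' value, log axis) of the 30 peaks, by region in genomic order, with colour for the treatment and symbol for the replicate. Region 1 lies between 17.4 and 40.3, regions 2 to 4 between 4.76 and 14.6, and regions 5 to 7 at 7.31 or below.

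The background around the regions differed along the gene. At region 1 the background pileup of the peak was 5.33 to 9.55 times the lowest of its list, and at region 2 it was 5.67 to 11.3 times. It was 2.80 to 4 times at region 3, 1 to 2.18 times at region 4, and equal to the lowest at regions 5, 6 and 7. The fold divides by this background, so the folds of regions 1 to 3 are lower than their summit pileups alone would give: region 2 had 8 to 18 fragments at its summit and region 4 had 4 to 15. Whether the fragments of the peaks themselves raise the background next to them was not tested.

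Since the flanks were empty, width and fold inside the gene were set against all peaks of the same list outside the window, a comparator chosen after the lists had been seen. The median width inside the gene was 117, 102 and 132 bp in SMARCB1 DMSO replicates 1, 2 and 3 and 112, 95 and 137 bp in dBRD9-A, against medians of 120 to 128 bp in the lists. The difference averaged −10 ± 14.5 bp (SD, n = 6) and had both signs (two-sided exact sign-flip permutation p = 0.188, adjusted p = 0.188 over 2 tests). The median log2 fold inside exceeded that of the rest of the list in 6 of 6 lists, by 0.20 to 0.86, with a mean of 0.52 ± 0.28 (SD, n = 6). The exact sign-flip permutation p was 0.0312, the smallest 6 lists allow, and the adjusted p was 0.0625, above the threshold of 0.05. No lower adjusted value was possible unless the width test was also at its smallest p. The locus was picked with earlier results known, so the tests of width and fold are no independent evidence. With the means in place of the medians the width difference was −49 bp and the log2 difference was 0.51, each with an exact permutation p of 0.0312 after adjustment. Restricted to a −log10 q of 5 or more, the median log2 difference was 0.17 (exact permutation, adjusted p = 0.344), and with lists of equal length it was 0.11 (adjusted p = 0.406). The width differences were −49.8 and −84.7 bp in these settings (exact permutation, adjusted p = 0.0625 each).

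No difference with dBRD9-A was detectable at the locus. Within SMARCB1 cells the number of peaks in the gene differed by −0.667 between dBRD9-A and DMSO libraries (two-sided exact permutation p = 0.7, where 3 against 3 libraries cannot give less than 0.1) and the bases covered differed by −71.7 bp (exact permutation p = 0.6). Both inductions averaged, the differences were −0.333 peaks and −35.8 bp (adjusted p of 1 by the exact permutation test over 15 planned tests). The GFP libraries were all at 0, so the same 2 differences in SMARCB1 cells are also the dependence of the dBRD9-A effect on the induction. Their direction rested on SMARCB1 dBRD9-A replicate 2: without it dBRD9-A libraries of SMARCB1 cells had 0.167 more peaks and covered 53.5 bp more than DMSO libraries.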

How the data were processed

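Peaks came from 12 ATAC-seq libraries, with 1 list per library of fragments the labels call nucleosome free. The submitters' processing notes name BWA 0.7.12-r1039, SAMtools 1.2, bedtools 2.24.0, MACS2 2.1.1.20160309, DiffBind, DESeq2 and the build hg19 (GRCh37); their settings and the filter applied are not given in the sources used here. The deposited lists give per peak a fold enrichment (a ratio), the −log10 p and −log10 q and a score, which was not used; the fold is the authors' value, used only within a list.

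Positions are 1-based. Summit pileup and background were solved from the deposited fold (pseudocount 1) and −log10 p, and were whole within 0.001 for 100% of the 30 peaks. Regions are peaks of all lists merged at 1 bp overlap. Differences between groups were tested by exact permutation within the levels of the other factor, and within-list differences by sign flips, with Benjamini-Hochberg adjustment over 15 planned tests (6 had a value, the others entered as 1) and over 2. Python 3.11.15, numpy 2.4.6, pandas 2.3.3 and scipy 1.17.1 were used, and the calculations were tested on simulated lists.

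Every region in the gene body was to be named, and flank regions with a peak in 6 libraries or more. The locus and these rules were chosen with earlier results of these data known. Other SWI/SNF genes were not counted, for want of a GRCh37 annotation.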

Additional observations from a re-analysis of the deposited data

How the results depend on the processing

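The flanks stayed at 0 peaks in each setting tried, and the comparators outside the window were added after seeing the data. With a replicate block the differences of 5 peaks and 576 bp between SMARCB1 and GFP had an adjusted p of 0.234, from the smallest p 6 paired differences allow, 0.0312. Replicate numbers were not taken as pairs in the main tests. Deviations of log2 fold at 16308 shared regions correlated between −0.04 and 0.17 for same-numbered libraries, above 0.1 in 4 of 18 pairs. For libraries of different numbers the correlations ran from −0.13 to 0.09. Of the 12 libraries, 11 were closest to one of their own number, a weak likeness that the main p-values ignore. With 1 library left out, the differences between SMARCB1 and GFP were 4.67 to 5.42 peaks and 542 to 639 bp. Those for dBRD9-A were −0.667 to 0.0833 peaks and −82.3 to 26.8 bp, and those between the dBRD9-A effects −1.33 to 0.167 peaks and −165 to 53.5 bp. With a −log10 q of at least 5 both dBRD9-A contrasts in peaks were 0. With means in place of medians the width difference was −49 bp and the log2 fold difference 0.51, both with an adjusted permutation p of 0.0312. The median differences were −49.8 bp and 0.17 at a −log10 q of at least 5, and −84.7 bp and 0.11 with lists of equal length. With lists of equal length 2 regions of the gene were gained in DMSO, 1 in dBRD9-A and 1 in both. The shares of all regions, with and without GFP peaks, were 2.99%, 2.97% and 1.95%. The differences between SMARCB1 and GFP were then 3.17 peaks and 367 bp. Within 5 bp, 54 regions of the genome had shared edges in place of 5. The summits of regions 5 to 7 held 2 to 7 fragments.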

Other observations

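The other 4 regions whose start and end were identical in the 6 SMARCB1 lists differed from region 1 of SMARCB1 in having peaks in GFP libraries. They lay at chr12:66451373-66451458, 86 bp wide with a mean fold of 16.8, and chr13:101780258-101780353, 96 bp wide with a mean fold of 4.92. The remaining ones were at chr4:25793954-25794045 and chr5:145806841-145806930, 92 and 90 bp wide with mean folds of 6.23 and 5.40. Region 1 had the highest mean fold of the 5, at 32.7. Those on chromosomes 4, 5 and 12 were found in 6 of 6 GFP libraries and that on chromosome 13 in 5. No gene was assigned to them.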
